A study of Mus musculus with 18 samples.

Results

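The transcriptome of mouse BV2 cells whose labels read BAK1-KD was compared between 24 h and 12 h of oxyhemoglobin, across all genes. This used 6 of the 18 libraries of the series, chosen by their titles: 3 at 24 h and 3 at 12 h. BV2 is an immortalized microglial line, and oxyhemoglobin is the oxygenated form of the red blood cell protein, which spills into the brain's fluid spaces in subarachnoid hemorrhage. Both groups carried the KD label and received oxyhemoglobin at a labelled 10 mM, a unit that could not be checked, and differed in the labelled hours of exposure. Used for orientation were 3 KD-labelled libraries without treatment (control, 0 h), and 9 libraries of the line labelled NC, 3 each at 24 h, 12 h and 0 h. The labels spell out neither KD nor NC, do not say how either line was made or whether it is 1 clone, and list no untreated cells at 12 h or 24 h, so hours of exposure and hours in culture cannot be told apart. The labels do not tie the 3 libraries of a group to different cultures, so a p-value speaks of the spread among libraries, which may be technical.

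Microglia are the resident macrophages of the brain. When they meet blood products they take up hemoglobin and heme, induce heme oxygenase and antioxidant genes, and, through pattern-recognition receptors and NF-kB, release cytokines, chemokines, proteases and reactive oxygen and nitrogen species. An interferon response usually follows the NF-kB wave, the endoplasmic reticulum (ER) adapts to the load of secreted proteins through the unfolded protein response, and activated cells often leave the cell cycle for a time. The gene that the KD label names, Bak1, encodes a protein that opens pores in the outer mitochondrial membrane during apoptosis.

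Total counts in the 6 libraries ran from 4466642 to 5955346, and 15996 of 55487 genes had enough counts to be tested. Levels are in CPM, counts scaled to library sizes corrected by the trimmed mean of M-values. Changes are log2 fold changes of 24 h over 12 h ± SE, tested by quasi-likelihood in edgeR. All p-values so adjusted are Benjamini-Hochberg values over the 15996 genes, with a threshold of 0.05. Bak1 itself lay at the counting limit, with 12, 2 and 2 counts at 24 h, against 4, 1 and 5 counts at 12 h. The ratio of count rates was 1.61 (95% exact interval 0.688 to 3.97, exact binomial test, two-sided p = 0.246), and Ggnbp1, a gene of the opposite strand, covers 25.5% of the exon sequence of Bak1. Against NC the ratio was 2.67 (0.991 to 8.32, exact p = 0.0347) at 24 h, higher in the KD-labelled line, which goes against the label, with 12 of its 16 counts from library 1. At 12 h it was 0.783 (0.307 to 1.93, exact p = 0.678). Bak1 thus did not check the KD label, and these intervals and p-values cover counting error only. Of 10 tested markers of microglia and macrophages 0 passed the threshold (1 higher and 2 lower with the block introduced below), and 4 globin genes of red cells had 0 counts in every library. On the second principal component, with 14.66% of the variance, library 2 scored below libraries 1 and 3 in all 6 groups. Libraries with the same number deviated together, with correlations of 0.497, 0.6 and 0.489 between 24 h and 12 h. The main fit and the overlap between times leave this pairing out. Values with the number as a block are therefore given where they change a count by over 1.5 times or a call.

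At 24 h against 12 h, 15 of 29 antiviral interferon-stimulated genes, 11 of 23 ER chaperone and stress genes and 4 of 12 cytokines were lower, with 0 higher. Higher were 26 of 30 mitosis genes, 13 of 30 DNA replication genes and 45 of 53 histone genes, with 0 lower. In all, 684 genes (4.28% of those tested) passed the threshold, of which 450 were higher at 24 h (2.81%) and 234 were lower (1.46%). At least 2-fold changes were reached by 306 of the higher and 109 of the lower genes. The 3 libraries of each time did not overlap for 682 of the 684, and for 19.8% of all genes tested. The median log2 fold change of all genes was -0.0073. With the number as a block 1971 of 15996 genes passed, 1095 higher and 876 lower (55.6% higher, against 65.8% in the fit without it). Counts of list members with the block are to be read against these larger counts over all genes. Without 24 h library 1 or 12 h library 2 the count was 428 or 449. On log2(TPM + 1) tested with limma, the median of all genes shifted to -0.183, and 33.9% of the 570 genes past the threshold were higher. The most counted gene, CT010467.2, took 14.2 to 20.4% of a library's counts at 24 h and 12.9 to 15.4% at 12 h. Whether it has a part in this shift was not tested. Genes are named below by size of change, by lists and by a fixed panel. The lists were chosen with earlier results of these data known, and the histones after their values were seen. Single genes picked after their values were seen are said to be so.

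**Figure D1:**
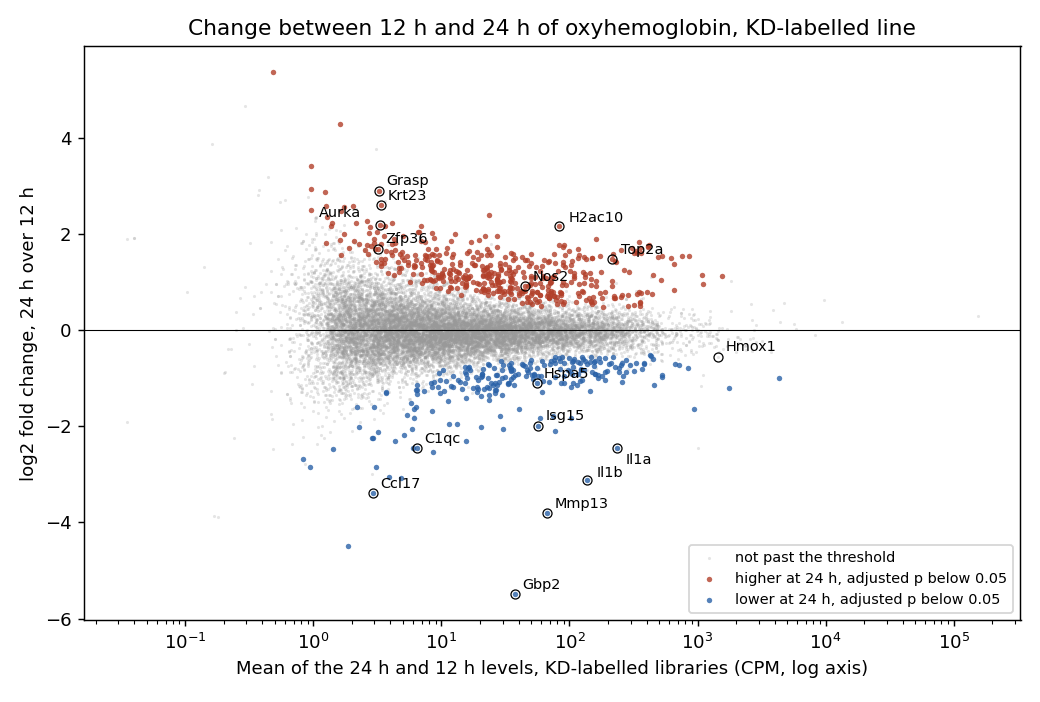
Log2 fold change of 24 h over 12 h (vertical) against the mean level of both times in CPM (horizontal, log axis), 1 point per tested gene in the KD-labelled line. Red points are the 450 genes higher at 24 h, blue points the 234 lower, grey points did not pass the threshold, and circles mark named genes such as Gbp2 at -5.49 and Grasp at 2.91.

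The 10 lowest log2 fold changes, among genes past the threshold with at least 5 CPM at their higher time and no overlap between times, ran from -5.49 to -2.45 and included the interleukins Il1b and Il1a and the complement gene C1qc, described further on. Gbp2 (chr3:142620602-142638008), an interferon-induced guanylate-binding protein, had 0.701, 0.837 and 3.57 CPM at 24 h, against 89.6, 51.0 and 78.6 CPM at 12 h (-5.49 ± 0.46, adjusted p = 5.59e-07). Mmp13, a secreted collagenase, had 9.63, 10.0 and 6.91 CPM at 24 h, against 135, 138 and 103 CPM at 12 h (-3.81 ± 0.23, adjusted p = 5.73e-10). Every 24 h library of both genes lay far below every 12 h library, and at 0 h Mmp13 stood at 6.62, 6.56 and 6.87 CPM. Ccl17, a chemokine for T cells, was near the counting limit at 24 h, with 0.350, 0 and 1.19 CPM, against 5.62, 5.55 and 4.83 CPM at 12 h (-3.39 ± 0.77, adjusted p = 0.0105, up to 0.0808 without 24 h library 1 or 2). Hp, the hemoglobin-binding plasma protein haptoglobin, had 0.876, 1.88 and 0.238 CPM at 24 h, against 9.07, 9.43 and 7.57 CPM at 12 h (-3.07 ± 0.38, adjusted p = 1.96e-05). Hdc, which makes histamine, fell by 2.53 ± 0.39 (adjusted p = 0.000254), and the protease inhibitor Serpina3g, whose reads close relatives may share, fell by 2.85 ± 0.53 (adjusted p = 0.00208). The long noncoding Gm6093 had no count at 0 h, 0.701, 0.628 and 1.19 CPM at 24 h, and 5.62, 10.4 and 4.83 CPM at 12 h (-3.05 ± 0.50, adjusted p = 0.000667).

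Interleukin-1 fell most steeply among the cytokines. Il1b, the secreted form that needs caspase-1 processing, had 29.4, 17.6 and 38.4 CPM at 24 h, against 300.2, 224 and 219 CPM at 12 h (-3.12 ± 0.26, adjusted p = 4.23e-07). Il1a, the form that acts as an alarmin, had 80.0, 65.7 and 71.7 CPM at 24 h, against 444, 389 and 355 CPM at 12 h (-2.45 ± 0.24, adjusted p = 1.11e-06). Neither gene overlapped between times, and with 1.71, 1.52 and 0.208 CPM of Il1b and 1.71, 1.52 and 1.46 CPM of Il1a at 0 h, both were still above control at 24 h. The receptor antagonist Il1rn, which blocks both, had 46.9, 31.8 and 42.2 CPM at 24 h, against 78.6, 81.5 and 91.0 CPM at 12 h (-1.05 ± 0.22, adjusted p = 0.00531). Il6 had 9.28, 7.32 and 10.5 CPM at 24 h, against 18.8, 15.7 and 22.9 CPM at 12 h (-1.08 ± 0.27, adjusted p = 0.0203), a call lost in 4 of 6 fits that left out 1 library (24 h library 1 or 2, 12 h library 1 or 3, adjusted p up to 0.118). The neutrophil growth factor Csf3 stood at 967, 563 and 767 CPM at 24 h, against 1808, 1167 and 1383 CPM at 12 h, and did not pass (-0.92 ± 0.28, adjusted p = 0.0682), while with the block it did (adjusted p = 0.00304). Tnf stood at 13.1, 20.9 and 11.9 CPM at 24 h, against 12.3, 15.3 and 11.6 CPM at 12 h, and the times overlapped (0.23 ± 0.31, adjusted p = 0.847). Of 12 tested cytokines 4 were lower and 0 higher, with a median of -0.65, and 2 were lower without the libraries numbered 2.

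Among 11 chemokines 2 were lower and 0 higher (median -0.14), and with the block 4 were lower and 1 higher. Ccl5, which attracts T cells and monocytes, had 12.8, 15.3 and 10.5 CPM at 24 h, against 42.6, 56.6 and 34.5 CPM at 12 h (-1.79 ± 0.28, adjusted p = 0.000278). The monocyte attractant Ccl2 stood at 111, 63.0 and 130.3 CPM at 24 h, against 108, 83.0 and 165 CPM at 12 h, with overlapping libraries (-0.22 ± 0.27, adjusted p = 0.811). Cxcl10, an interferon-induced T cell attractant, stood at 1.05, 2.09 and 2.38 CPM at 24 h, against 1.30, 1.48 and 2.94 CPM at 12 h, also overlapping (-0.07 ± 0.51, adjusted p = 0.974). Neither attractant was shown to change. Of 15 inflammatory enzymes and acute-phase proteins 6 were lower and 1 higher (median -0.68). Acod1, which makes itaconate, had 3121, 2538 and 2996 CPM at 24 h, against 6722, 4863 and 5652 CPM at 12 h (-0.99 ± 0.18, adjusted p = 0.00113). Cybb, the catalytic subunit of the phagocyte NADPH oxidase, had 404, 471 and 494 CPM at 24 h, against 1352, 1383 and 1497 CPM at 12 h (-1.63 ± 0.15, adjusted p = 6.28e-07). Ptgs2, the inducible cyclooxygenase, fell by 0.68 ± 0.16 (adjusted p = 0.0155), a call lost in 4 of 6 fits that left out 1 library (24 h library 1 or 3, 12 h library 2 or 3, adjusted p up to 0.0926). Nos2, the inducible nitric oxide synthase, was the 1 higher gene of that list, with 67.8, 60.5 and 49.3 CPM at 24 h, against 38.0, 32.7 and 23.3 CPM at 12 h. Its libraries did not overlap, and its change of 0.92 ± 0.26 (adjusted p = 0.0475) lost the threshold without any 1 of the 6 libraries (adjusted p up to 0.242).

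Of 14 NF-kB subunits and inhibitors of the pathway 3 were lower and 0 higher (median -0.39), and 6 were lower with the block. Tnfaip3, the deubiquitinase A20 that shuts NF-kB signalling off, had 13.5, 15.1 and 22.2 CPM at 24 h, against 33.3, 35.1 and 59.3 CPM at 12 h (-1.34 ± 0.24, adjusted p = 0.00106). Tnip3, an A20-binding protein, had 8.41, 7.74 and 7.86 CPM at 24 h, against 22.9, 42.0 and 32.6 CPM at 12 h (-2.02 ± 0.27, adjusted p = 4.74e-05). Neither overlapped between times. Sod2, the mitochondrial superoxide dismutase and a known NF-kB target, fell by 1.03 ± 0.17 (adjusted p = 0.000471); it was picked after its values were seen.

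For side-by-side reading, the KD-labelled line was also set against its 0 h libraries, in comparisons that share the 24 h or the 12 h libraries with the one above. At 24 h against 0 h 9.59% of all genes passed (5.50% higher and 4.09% lower), and at 12 h against 0 h 16% did (7.93% higher and 8.06% lower). Counts of list members against 0 h, here and below, are to be read against these shares. Of the 12 cytokines 9 were higher and 1 lower at 24 h against 0 h, and 9 were higher and 1 lower at 12 h against 0 h. Of the 14 NF-kB genes 5 were higher at 24 h and 9 at 12 h, with 0 lower at both. Of the 15 inflammatory enzymes 6 were higher and 1 lower at 24 h, and 9 were higher and 0 lower at 12 h.

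Of 29 tested Ifit, Oas and other antiviral genes, which interferon induces, 15 were lower and 0 higher, with a median of -0.88. Isg15, a ubiquitin-like protein that is attached to others, had 26.4, 23 and 19.5 CPM at 24 h, against 106, 95.9 and 72.3 CPM at 12 h (-1.99 ± 0.19, adjusted p = 1.16e-06). At 0 h it stood at 56.8, 44.1 and 50.1 CPM, above every 24 h library. Ube2l6, the enzyme that conjugates Isg15, had 10.7, 11.7 and 13.1 CPM at 24 h, against 48.4, 42.9 and 55.1 CPM at 12 h (-2.04 ± 0.28, adjusted p = 6.89e-05), and was picked after its values were seen. Ifi44 had 3.33, 8.58 and 3.81 CPM at 24 h, against 15.1, 31.2 and 30.9 CPM at 12 h (-2.30 ± 0.38, adjusted p = 0.000528). Ifit3, which binds viral RNA complexes and whose reads Ifit3b may share, had 13, 11.3 and 9.77 CPM at 24 h, against 34.8, 25.1 and 28.4 CPM at 12 h (-1.37 ± 0.21, adjusted p = 0.000292). Oas1a, a sensor of double-stranded RNA, had 212, 191 and 182 CPM at 24 h, against 402, 335 and 329 CPM at 12 h (-0.87 ± 0.16, adjusted p = 0.0019). None of these overlapped between times. Against 0 h, 19 of the 29 were lower and 0 higher at 24 h (of all genes, 4.09% and 5.50%). At 12 h against 0 h 5 were lower and 3 higher (of all genes, 8.06% and 7.93%).

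Irf7, the transcription factor that amplifies type I interferon, had 25.2, 19.2 and 33.3 CPM at 24 h, against 74.1, 59.7 and 142 CPM at 12 h (-1.83 ± 0.30, adjusted p = 0.000697). Of 13 IRF and STAT factors 2 were lower and 0 higher (median -0.15), and 4 were lower with the block. Of 6 guanylate-binding and immunity-related GTPases 1 was lower, Gbp2, and 2 were with the block. Of 18 genes of MHC class I presentation 1 was lower (median -0.45) and 6 were lower with the block. Cd274, the checkpoint ligand PD-L1, had 63.9, 65.7 and 59.3 CPM at 24 h, against 134, 138 and 154 CPM at 12 h (-1.17 ± 0.14, adjusted p = 9.23e-06); Slfn2, a Schlafen protein of immune cells, fell by 1.15 ± 0.18 (adjusted p = 0.000248). Both were picked after their values were seen.

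The antiviral genes are known to share the interferon-stimulated response element, the site of the STAT and IRF complexes. Its core GAAANNGAAA was searched on both strands from 250 bases before to 50 after each RefSeq gene start (GRCm38.p6). It was found in 12 of 22 tested antiviral genes with a promoter in the table (54.5%), in 8 of the 11 that were lower at 24 h (72.7%), and in 3.99% of all 27025 genes. The 100 bases shown hold the matches of 3 of these genes, in capitals, overlapping ones joined, read along the gene's strand. Positions are chr4:156200836-156200935 (minus strand) for Isg15, chr19:34583345-34583444 (plus strand) for Ifit3 and chr5:120907526-120907625 (minus strand) for Oas1a, and a match is a description of the letters, not a measured site.
Isg15: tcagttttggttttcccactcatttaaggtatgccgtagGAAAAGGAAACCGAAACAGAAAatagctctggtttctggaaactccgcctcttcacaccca
Ifit3: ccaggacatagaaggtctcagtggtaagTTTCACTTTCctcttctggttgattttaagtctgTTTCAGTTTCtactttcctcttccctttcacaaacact
Oas1a: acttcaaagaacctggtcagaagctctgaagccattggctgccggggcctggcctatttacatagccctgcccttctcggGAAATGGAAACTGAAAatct

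Of 23 tested ER chaperones and unfolded protein response genes 11 were lower and 0 higher (median -0.74), and 17 were lower with the block. In fits that left out 1 library the count was 6 without 24 h library 2 or 12 h library 1, and 7 without 24 h library 1, 24 h library 3 or 12 h library 3. Hspa5, the chaperone BiP, had 33.5, 25.3 and 46.9 CPM at 24 h, against 64.6, 59.9 and 103 CPM at 12 h (-1.11 ± 0.26, adjusted p = 0.0148), without overlap, though that call was lost without 24 h library 1 or 2 or 12 h library 3 (adjusted p up to 0.135). Pdia6, a disulfide isomerase, had 15.8, 14.2 and 15.5 CPM at 24 h, against 39.5, 29.6 and 43.7 CPM at 12 h (-1.31 ± 0.26, adjusted p = 0.00322). Dnajc3, a co-chaperone that restrains the kinase PERK, had 102, 109 and 109 CPM at 24 h, against 207, 188 and 187 CPM at 12 h (-0.86 ± 0.13, adjusted p = 0.000209). Hsp90b1, the ER member of the Hsp90 family, had 125, 109 and 96.0 CPM at 24 h, against 224, 205 and 190.0 CPM at 12 h (-0.90 ± 0.16, adjusted p = 0.000799). At 0 h Hsp90b1 had 116, 108 and 111 CPM, within the range of its 24 h libraries. Pdia6 had 14.5, 14.6 and 23.9 CPM at 0 h, the last above every 24 h library. Xbp1, whose spliced product drives the response, stood at 222, 164 and 219 CPM at 24 h, against 345, 263 and 338 CPM at 12 h (-0.64 ± 0.19, adjusted p = 0.055), and passed with the block (adjusted p = 2.2e-06). Against 0 h, 1 of the 23 was higher at 24 h and 17 were at 12 h, with 0 lower at both times.

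Serp1, Sec24d and Surf4, which act in protein export from the ER, were picked after their values were seen and form no list. Serp1, a translocon-associated protein, had 508, 521 and 498 CPM at 24 h, against 833, 811 and 837 CPM at 12 h (-0.70 ± 0.14, adjusted p = 0.00432). The COPII coat component Sec24d fell by 1.31 ± 0.29 (adjusted p = 0.00843, up to 0.0802 without 24 h library 3 or 12 h library 2), and the cargo receptor Surf4 by 0.73 ± 0.17 (adjusted p = 0.0139, up to 0.0762 without 24 h library 2 or 12 h library 1 or 3). Of 21 targets of ATF4, the factor of the integrated stress response, 3 were lower and 0 higher (median -0.24), and 7 were lower with the block. Ddit3, the death-associated factor CHOP, had 21.0, 23 and 19.8 CPM at 24 h, against 55.3, 40.5 and 41.8 CPM at 12 h (-1.11 ± 0.19, adjusted p = 0.000883). Trib3, a pseudokinase it induces, fell by 1.08 ± 0.24 (adjusted p = 0.0083). Atf4 stood at 117, 94.6 and 221 CPM at 24 h, against 142, 116 and 305 CPM at 12 h, and the times overlapped (-0.38 ± 0.37, adjusted p = 0.753).

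The ER stress element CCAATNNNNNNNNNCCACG, known as the site of ATF6 with NF-Y, was found on either strand in 8 of 20 tested ER genes with a promoter in the table (40%), in 7 of the 10 that were lower (70%), and in 0.137% of all genes. The matches of Hspa5, Pdia6 and Dnajc3 are shown in capitals. The stretches are chr2:34771984-34772083 (plus strand) for Hspa5, chr12:17266450-17266549 (plus strand) for Pdia6 and chr14:118937786-118937885 (plus strand) for Dnajc3 (GRCm38.p6, RefSeq).
Hspa5: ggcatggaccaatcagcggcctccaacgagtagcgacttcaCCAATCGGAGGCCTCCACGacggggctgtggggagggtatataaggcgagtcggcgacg
Pdia6: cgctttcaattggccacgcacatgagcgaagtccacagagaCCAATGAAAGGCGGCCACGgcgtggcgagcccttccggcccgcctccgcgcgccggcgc
Dnajc3: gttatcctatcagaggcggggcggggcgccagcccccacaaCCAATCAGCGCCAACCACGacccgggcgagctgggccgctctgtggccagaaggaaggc

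Of 30 tested genes of mitosis and G2/M 26 were higher and 0 lower, with a median of 1.35. Top2a, the topoisomerase that untangles chromosomes, had 336, 348 and 266 CPM at 24 h, against 118, 116 and 106 CPM at 12 h (1.48 ± 0.15, adjusted p = 2.24e-06). Mki67, the proliferation marker that coats mitotic chromosomes, had 1078, 818 and 947 CPM at 24 h, against 436, 354 and 304 CPM at 12 h (1.38 ± 0.25, adjusted p = 0.00118). At 0 h Top2a stood at 375, 388 and 395 CPM and Mki67 at 1346, 1424 and 1263 CPM, above every 24 h library of each. Kif11, the kinesin that pushes spindle poles apart, had 219.8, 247 and 194 CPM at 24 h, against 80.1, 83.0 and 69.1 CPM at 12 h (1.51 ± 0.15, adjusted p = 1.48e-06). Cdk1, the kinase that starts mitosis, had 25.2, 26.2 and 24.1 CPM at 24 h, against 8.86, 6.65 and 13 CPM at 12 h (1.41 ± 0.22, adjusted p = 0.000282). Aurka, a centrosomal kinase, had 5.25, 4.60 and 6.43 CPM at 24 h, against 1.73, 0.739 and 1.05 CPM at 12 h (2.2 ± 0.42, adjusted p = 0.00188). The 4 members that did not pass were Tpx2, Nusap1, Ect2 and Aurkb, the last with 1.79 on the log2 scale (adjusted p = 0.0509), and with the block all but Tpx2 were higher (29 of 30). On log2(TPM + 1) 14 of 26 passed, all of them higher, with a median of 0.92. Transcription factors known to drive mitotic genes, picked after their values were seen, were higher too: Foxm1 had 96.9, 88.5 and 95.3 CPM at 24 h, against 38.2, 23.7 and 39.9 CPM at 12 h (1.47 ± 0.21, adjusted p = 9.02e-05), and Mybl2 rose by 1.53 ± 0.22 (adjusted p = 0.000112). Against 0 h, 1 of the 30 was lower and 0 higher at 24 h, and 30 were lower at 12 h.

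The motif TTTGAA of the cell cycle genes homology region, known as the site of the MuvB complexes that time mitotic genes, was found on either strand in 21 of 27 tested mitosis genes with a promoter in the table (77.8%), in 20 of the 25 that were higher (80%), and in 20.2% of all genes. A 6-letter motif is common by its length alone. Another match of Top2a, at -179 from the gene start, lies outside the stretch shown. Matches of Top2a, Kif11 and Cdk1 stand in capitals in chr11:99024190-99024289 (minus strand) for Top2a, chr19:37376282-37376381 (plus strand) for Kif11 and chr10:69352913-69353012 (minus strand) for Cdk1 (GRCm38.p6, RefSeq).
Top2a: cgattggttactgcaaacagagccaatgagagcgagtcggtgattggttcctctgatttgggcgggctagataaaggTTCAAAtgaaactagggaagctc
Kif11: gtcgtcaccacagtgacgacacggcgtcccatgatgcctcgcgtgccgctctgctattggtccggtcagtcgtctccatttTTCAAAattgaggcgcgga
Cdk1: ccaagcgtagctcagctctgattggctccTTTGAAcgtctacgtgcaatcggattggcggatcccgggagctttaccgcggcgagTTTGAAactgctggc

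Of 30 genes of DNA replication and S phase 13 were higher and 0 lower, with a median of 0.79, and 20 were higher with the block. Rrm2, the regulated subunit of ribonucleotide reductase, had 108, 98.1 and 98.1 CPM at 24 h, against 36.9, 31.1 and 43.1 CPM at 12 h (1.45 ± 0.18, adjusted p = 1.99e-05). At 0 h it stood at 67.0, 66.8 and 67.2 CPM, below every 24 h library and above every 12 h library. Pole, the leading-strand polymerase, had 79.5, 63.4 and 64.1 CPM at 24 h, against 31.1, 25.7 and 25.6 CPM at 12 h (1.33 ± 0.17, adjusted p = 4.22e-05). Mcm7, a subunit of the replicative helicase, had 173, 132 and 141 CPM at 24 h, against 79.1, 42.7 and 52.8 CPM at 12 h (1.36 ± 0.22, adjusted p = 0.000449). Mcm5, its partner in the same ring, stood at 21.9, 9.83 and 14.5 CPM at 24 h, against 10.2, 9.06 and 11.1 CPM at 12 h, and overlapped (0.62 ± 0.29, adjusted p = 0.33). Bard1, the BRCA1 partner in DNA repair and picked after its values were seen, had 149, 149 and 151 CPM at 24 h, against 55.9, 43.4 and 43.5 CPM at 12 h (1.65 ± 0.15, adjusted p = 5.48e-07). Against 0 h, 2 of the 30 were higher and 1 lower at 24 h, and 16 were lower and 0 higher at 12 h.

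The replication-dependent histones, which cells make in S phase to package new DNA, were taken by symbol after their values were seen. Of 53 tested histone genes 45 were higher and 0 lower, all 53 had a positive log2 fold change (0.46 to 2.41, median 1.56), and with the block 52 were higher. They lie in clusters, 48 on chromosome 13 and 5 on chromosome 3, and near-identical copies may share reads, so the genes are not independent of each other. Among the 53 is H2ac14, which is annotated as an unprocessed pseudogene. Summed over all histone genes, the level was 19385, 18050 and 18694 CPM at 24 h, against 7887, 6116 and 6697 CPM at 12 h, and 26550, 23222 and 29886 CPM at 0 h. The 24 h libraries thus lay between the 12 h libraries and the controls, without overlap. H2ac10, a histone H2A gene, had 125, 112 and 174 CPM at 24 h, against 25.5, 25.5 and 39.7 CPM at 12 h (2.18 ± 0.20, adjusted p = 6.14e-07). H1f3, a linker histone, had 1336, 1049 and 1432 CPM at 24 h, against 486, 339 and 483 CPM at 12 h (1.55 ± 0.26, adjusted p = 0.000616). H2ac13 had the largest change of the family, with 41.2, 46.7 and 30.5 CPM at 24 h, against 6.26, 7.95 and 7.99 CPM at 12 h (2.41 ± 0.27, adjusted p = 6.26e-06). Genes of the opposite strand cover 35.3% of the exon sequence of H2ac10 and 35.1% of that of H2ac13.

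**Figure D2:**
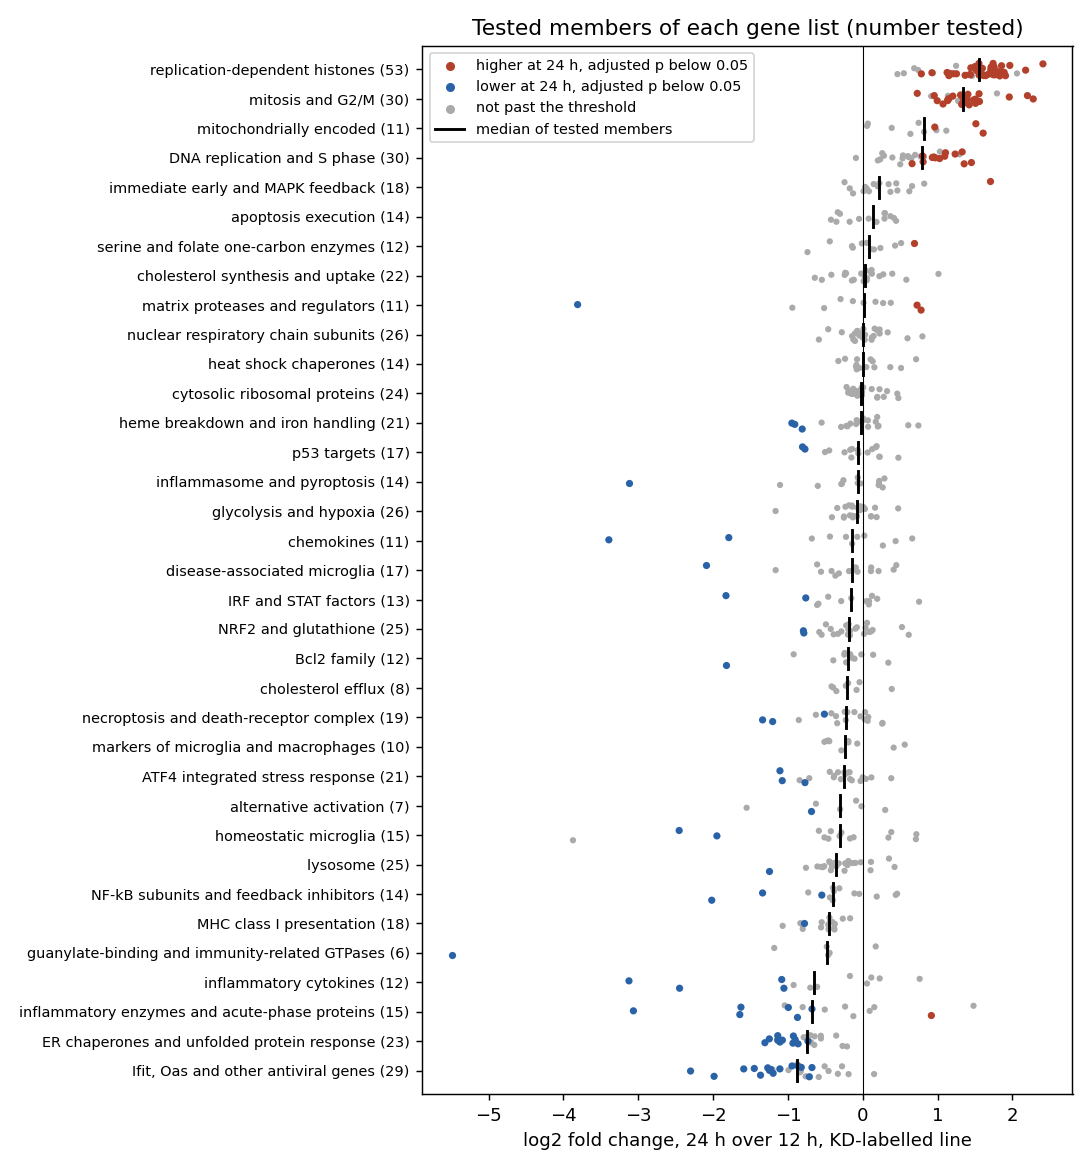
Log2 fold change of 24 h over 12 h in the KD-labelled line for every tested member of the gene lists (rows, number tested in brackets), with colour for members past the threshold and a black bar at the list's median. Lists of markers of cell types other than microglia and macrophages are not drawn. Medians run from -0.88 in the antiviral genes to 1.35 in the mitosis genes and 1.56 in the histones, the last taken by symbol after their values were seen.

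The other large increases came from genes with no list. Grasp, a scaffold protein of membrane receptor traffic, had 7.01, 6.07 and 4.05 CPM at 24 h, against 0.864, 0.555 and 0.841 CPM at 12 h (2.91 ± 0.56, adjusted p = 0.00215). Its 0 h libraries, with 8.32, 2.90 and 6.24 CPM, covered the range at 24 h. Krt23, a type I keratin, had 7.36, 4.81 and 5.24 CPM at 24 h, against 0.864, 1.48 and 0.420 CPM at 12 h (2.61 ± 0.56, adjusted p = 0.00612). At 0 h it stood at 0.427, 0 and 0.624 CPM, so that its 24 h libraries were the highest of the line. Rab44, an atypical Rab GTPase, had 13.3, 9.21 and 11.2 CPM at 24 h, against 1.94, 2.59 and 2.94 CPM at 12 h (2.16 ± 0.28, adjusted p = 4.08e-05), and 7.47, 6.86 and 7.07 CPM at 0 h. Draxin, an axon guidance protein, rose by 2.23 ± 0.51 (adjusted p = 0.0109, up to 0.0805 without 24 h library 1 or 12 h library 2). The long noncoding 4930516B21Rik, the minus-end kinesin Kifc1 and the centrosomal Cep72 rose by 2.18 ± 0.41, 2.06 ± 0.40 and 2.04 ± 0.40 (adjusted p = 0.0017, 0.00287 and 0.00292).

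**Figure D3:**
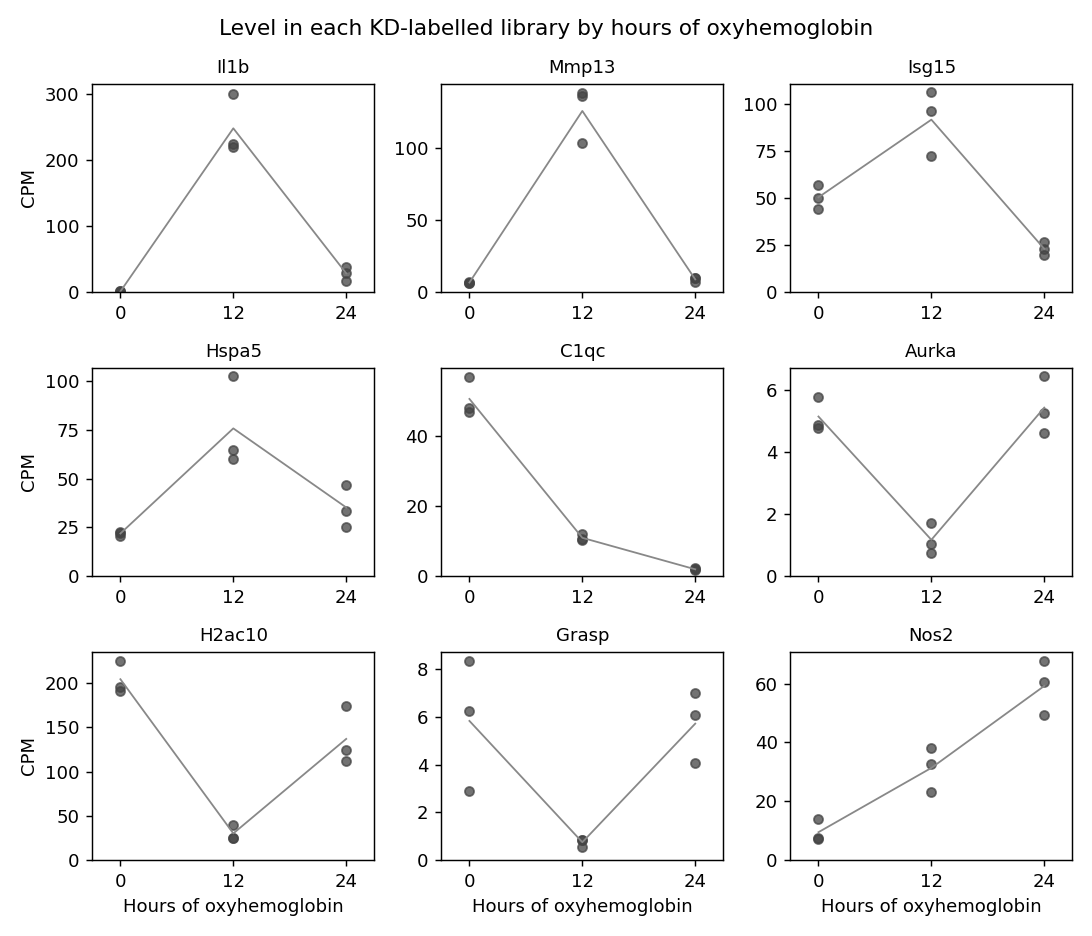
Level in CPM (vertical) of 9 genes in each KD-labelled library at 0 h, 12 h and 24 h of oxyhemoglobin (horizontal), with points for libraries, 3 per time, and a line through the means. Il1b, Mmp13, Isg15 and Hspa5 peak at 12 h, Aurka, H2ac10 and Grasp are lowest at 12 h, C1qc is lowest at 24 h and Nos2 highest at 24 h.

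Transcripts encoded by the mitochondrial genome were higher in part. Of 11 tested 3 were higher and 0 lower (median 0.82), 5 were higher with the block, and between 0 and 4 were when 1 library was left out, 0 without 24 h library 2. A subunit of complex I, mt-Nd1, had 453, 634 and 443 CPM at 24 h, against 183, 182 and 136 CPM at 12 h (1.61 ± 0.34, adjusted p = 0.0083, and 0.0556 without 24 h library 2). Nuclear copies of these genes may share their reads. All genes of the mitochondrial genome, tested or not, took 1.34 to 2.12% of all counts at 24 h, against 0.918 to 1.33% at 12 h. Of 26 nuclear-encoded respiratory chain subunits 0 passed at all (median 0.01), and 1 was lower with the block.

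Among genes for handling heme, iron and oxidants, Hmox1, heme oxygenase 1, stood at 1510, 934 and 1102 CPM at 24 h, against 2357, 1360 and 1473 CPM at 12 h, with overlap (-0.55 ± 0.26, adjusted p = 0.345). At 0 h it stood at 396, 289 and 391 CPM, below every treated library. Slc48a1, the heme transporter HRG1 of the phagolysosome, had 79.5, 75.1 and 86.7 CPM at 24 h, against 159.8, 138 and 155 CPM at 12 h (-0.91 ± 0.19, adjusted p = 0.00619). Slc11a2, the iron importer DMT1, had 188, 139.8 and 207 CPM at 24 h, against 399, 267 and 366 CPM at 12 h (-0.95 ± 0.21, adjusted p = 0.00881, and up to 0.0539 without 24 h library 2 or 12 h library 1). Of 21 heme and iron genes 3 were lower (14.3%, against 1.46% of all genes) and 0 higher (median -0.02), and 1 was without 24 h library 2 or 12 h library 1. Of 25 NRF2 and glutathione genes 2 were lower (8%) and 0 higher (median -0.19), and 4 with the block. Slc7a11, the cystine importer, stood at 1647, 2344 and 2211 CPM at 24 h, against 2114, 2915 and 2770 CPM at 12 h, and did not pass (-0.33 ± 0.21, adjusted p = 0.549), but did with the block (adjusted p = 0.00238). At 0 h it stood at 127, 203 and 155 CPM.

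C1qc, a chain of complement C1q, which resting microglia express highly, had 1.93, 2.30 and 1.67 CPM at 24 h, against 11.9, 10.2 and 10.7 CPM at 12 h (-2.45 ± 0.36, adjusted p = 0.000153), and 56.6, 47.9 and 46.8 CPM at 0 h. C1qb, another chain, had 3.68, 4.81 and 5.72 CPM at 24 h, against 22.2, 13.9 and 18.5 CPM at 12 h (-1.95 ± 0.35, adjusted p = 0.00112), and 73.0, 42.8 and 87.4 CPM at 0 h. C1qa, the third chain, was at 0 in all 24 h libraries and at 0.216, 0.370 and 0.420 CPM at 12 h, both within the counting limit. Of 15 homeostatic genes 2 were lower and 0 higher (median -0.31), and 5 were lower and 1 higher with the block. Igf1, a growth factor of disease-associated microglia, had 23.8, 34.1 and 29.3 CPM at 24 h, against 94.8, 135 and 141 CPM at 12 h (-2.09 ± 0.26, adjusted p = 3.15e-05), and 182, 307 and 253 CPM at 0 h. Both orders ran 24 h below 12 h below 0 h, with no overlap between neighbours. Msr1, a scavenger receptor, fell by 0.70 ± 0.14 (adjusted p = 0.00459), and Atp6v0d2, a subunit of the lysosomal proton pump, by 1.25 ± 0.21 (adjusted p = 0.000459). Of 25 lysosomal genes 1 was lower (median -0.35), with the block 11 were, and of 17 disease-associated genes 1 was lower and with the block 4 were lower and 1 higher. Of 7 alternative-activation genes 1 was lower, and 4 with the block. In bulk RNA, fewer cells of a kind and less RNA per cell cannot be told apart.

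The study's title names necroptosis, a form of cell death. Of 19 tested genes of necroptosis and the death-receptor complex 3 were lower (15.8%, against 1.46% of all genes) and 0 higher (median -0.23), and 5 were lower with the block. The kinase Ripk3, of the same list, had 5 counts over all 18 libraries, 2 of them in the 6 compared, and was not tested. Zbp1, Fas, Tnfrsf10b and Tlr3, with 4, 41, 24 and 20 counts over all libraries, were not tested either. Tnfrsf1b, the second receptor for TNF, had 1202, 946 and 1079 CPM at 24 h, against 2921, 2148 and 2363 CPM at 12 h (-1.20 ± 0.17, adjusted p = 0.000126). Cflar, the caspase-8 inhibitor cFLIP, had 349, 352 and 357 CPM at 24 h, against 510.4, 496 and 503 CPM at 12 h (-0.51 ± 0.13, adjusted p = 0.0184), without overlap, but lost the threshold without any 1 of the 6 libraries (adjusted p up to 0.0706). The third was Tnfaip3, already described. The kinase Ripk1 stood at 40.3, 30.3 and 38.4 CPM at 24 h, against 35.2, 33.6 and 34.7 CPM at 12 h (0.07 ± 0.17, adjusted p = 0.919). The pore-former Mlkl stood at 1.58, 2.30 and 2.62 CPM at 24 h, against 4.32, 2.77 and 4.62 CPM at 12 h (-0.85 ± 0.44, adjusted p = 0.401), and Casp8 changed by 0.27 ± 0.33 (adjusted p = 0.821). Bcl2a1d, a survival protein that NF-kB induces and whose close relatives may share its reads, had 44.0, 36 and 57.2 CPM at 24 h, against 152, 143 and 189 CPM at 12 h (-1.82 ± 0.20, adjusted p = 3.99e-06). It was the only 1 of 12 Bcl2 family genes past the threshold (median -0.19), and with the block 3 were lower and 1 higher. Bax, the other pore-former of the mitochondrial membrane, and the survival proteins Mcl1 and Bcl2l1 changed by -0.11 ± 0.28, -0.14 ± 0.15 and -0.39 ± 0.17 (adjusted p = 0.928, 0.787 and 0.287), and Bcl2l1 passed with the block (adjusted p = 0.0423).

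Plau, the urokinase protease, rose by 0.73 ± 0.15 (adjusted p = 0.0033), and Timp2, which inhibits matrix proteases, by 0.78 ± 0.19 (adjusted p = 0.0178, up to 0.114 without 24 h library 1 or 3 or 12 h library 2 or 3), against the fall of Mmp13 in the same list of 11, where with the block 2 were higher and 2 lower. Zfp36, which destabilizes cytokine messages, had 5.60, 5.65 and 3.33 CPM at 24 h, against 1.30, 1.11 and 2.10 CPM at 12 h (1.70 ± 0.44, adjusted p = 0.0256, up to 0.133 without 24 h library 1 or 2 or 12 h library 1 or 2). It was the 1 of 18 immediate early genes that passed, and 7 were higher with the block. Plk2, a stress-induced kinase, fell by 0.80 ± 0.15 (adjusted p = 0.00181), 1 of 2 lower among 17 p53 targets, and the mitochondrial folate enzyme Aldh1l2 was the 1 higher of 12 serine and folate enzymes (0.69 ± 0.17, adjusted p = 0.019, lost without 24 h library 1 or 3 or 12 h library 2 or 3, adjusted p up to 0.104). Il1b was the 1 of 14 inflammasome genes that passed, and 2 were lower with the block. None passed of 14 apoptosis executioners (3 higher with the block), 22 cholesterol synthesis genes (2 higher and 1 lower with it), 8 efflux genes (2 lower with it), 14 heat shock chaperones and 26 glycolysis and hypoxia genes (1 higher with it in each), and 24 ribosomal proteins. Of markers of other cell types, 2 of erythroid cells, 2 of neurons, 1 of astrocytes, 1 of oligodendrocytes and 3 of fibroblasts or endothelium were tested and 0 passed; 1 of the last was higher with the block.

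The NC line went through the same interval in 6 other libraries, none of them shared. At 24 h against 12 h of oxyhemoglobin 441 genes (2.76%) passed the threshold in the NC line. Of these, 271 had also passed in the KD-labelled line, which is 39.6% of its 684 genes and 61.5% of the 441. Of the 271, 270 had the same direction in both lines. Of the 684 genes 97.4% had the same sign in the NC line, against 64.8% of all genes, and their median size of change on the log2 scale was 1.11 in the KD-labelled line and 0.721 in the NC line. The genes were chosen by their test in the KD-labelled line, which by itself can make that median the larger. Libraries with the same number also deviated together across the lines, with correlations from 0.148 to 0.642. The test of the difference itself, the interaction of line with time, passed for 1 gene (0.00625% of those tested), with 626 at an unadjusted p below 0.05, and for 2 genes in DESeq2. With the number as a block 112 genes passed, 79 with the larger log2 fold change in the KD-labelled line and 33 with the larger in the NC line. For the lists, the values stood side by side: 26 of 30 mitosis genes higher in the KD-labelled line and 16 in the NC line, 45 and 24 of 53 histones higher, 15 and 22 of 29 antiviral genes lower, 11 and 7 of 23 ER genes lower, 4 and 6 of 12 cytokines lower, and 3 and 8 of 11 mitochondrial genes higher. None of these genes passed the interaction test without the block. Their interactions, KD-labelled minus NC, nevertheless leaned to 1 side in some lists, against 51.8% positive and a median of 0.02 over all genes. They were positive in 53 of 53 histones (median 0.73), 26 of 30 mitosis genes (0.41), 24 of 29 antiviral genes (0.49) and 15 of 18 immediate early genes (0.36). They were positive in only 2 of 15 homeostatic genes (-0.28) and 0 of 11 mitochondrial genes (-0.45). With the block, 0.7% of all genes passed. Positive calls were 16 of 53 histones (30.2%), 6 of 18 immediate early genes (33.3%) and 3 of 29 antiviral genes. There was also 1 each of 30 mitosis genes, 30 replication genes, 12 cytokines, 22 cholesterol synthesis genes, 17 p53 targets and 10 microglial markers. Negative calls were 2 of 17 disease-associated genes (11.8%) and 1 each of 11 mitochondrial, 14 NF-kB, 21 heme and iron and 25 lysosomal genes. Of 23 ER genes 0 passed. Where both lines rose, a positive interaction means a larger rise in the KD-labelled line, and where both fell, a smaller fall. The immediate early genes leaned opposite ways: 15 of 18 changes were positive in the KD-labelled line (median 0.21) and 5 in the NC line (-0.21). Members of a list, the clustered histones above all, are not independent of each other, and no test over a list was made.

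**Figure D4:**
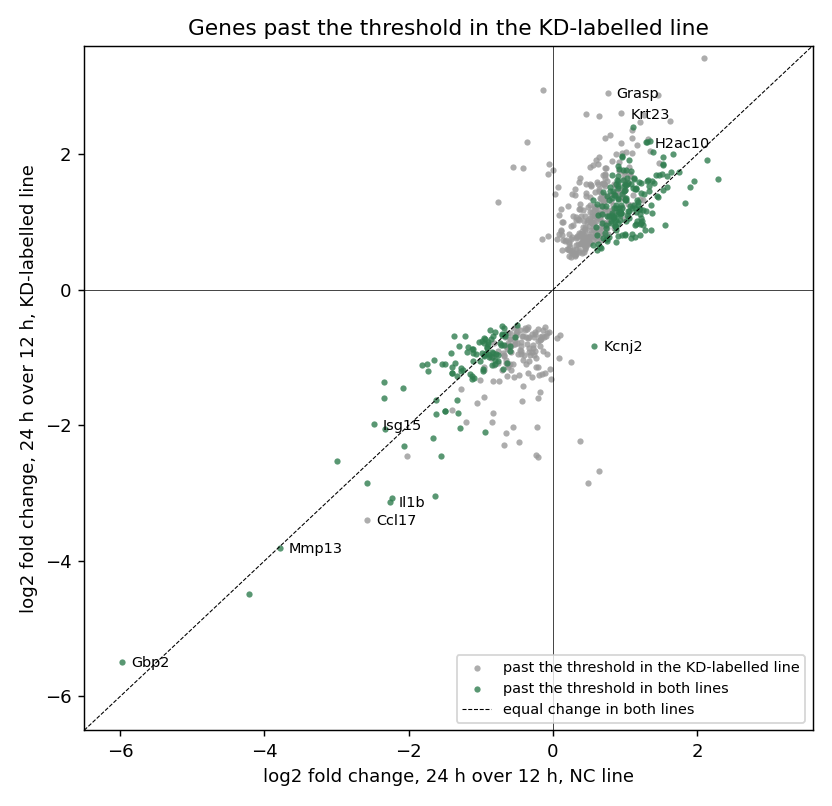
Log2 fold change of 24 h over 12 h in the KD-labelled line (vertical) and in the NC line (horizontal) for the 684 genes past the threshold in the KD-labelled line. Green points, 271 genes, also passed in the NC line, grey points did not, the dashed line marks equal change, and Kcnj2 is the single green point with opposite signs.

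The 1 gene past the interaction test was Kcnj2 (ENSMUSG00000041695, chr11:111066164-111076821, plus strand, GRCm38), which encodes the inward rectifier Kir2.1, a potassium channel that sets the resting potential of microglia. In the KD-labelled line it had 81.6, 95.4 and 89.8 CPM at 24 h, against 154, 152 and 166 CPM at 12 h (-0.82 ± 0.14, adjusted p = 0.000726). In the NC line it had 111, 117 and 137 CPM at 24 h, against 72.9, 81.9 and 90.4 CPM at 12 h (0.58 ± 0.14, adjusted p = 0.0272). All 3 KD-labelled libraries at 24 h lay below those at 12 h, and all 3 NC libraries at 24 h lay above those at 12 h. The interaction was -1.40 ± 0.20 on the log2 scale (adjusted p = 0.00742). It missed the threshold without KD 24 h library 1 (-1.34, adjusted p = 0.0607) and without NC 12 h library 1 (-1.32, adjusted p = 0.0648), without the libraries numbered 2 (-1.51, adjusted p = 0.168) and in limma on log2(TPM + 1) (-1.41, adjusted p = 0.399).

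**Figure D5:**
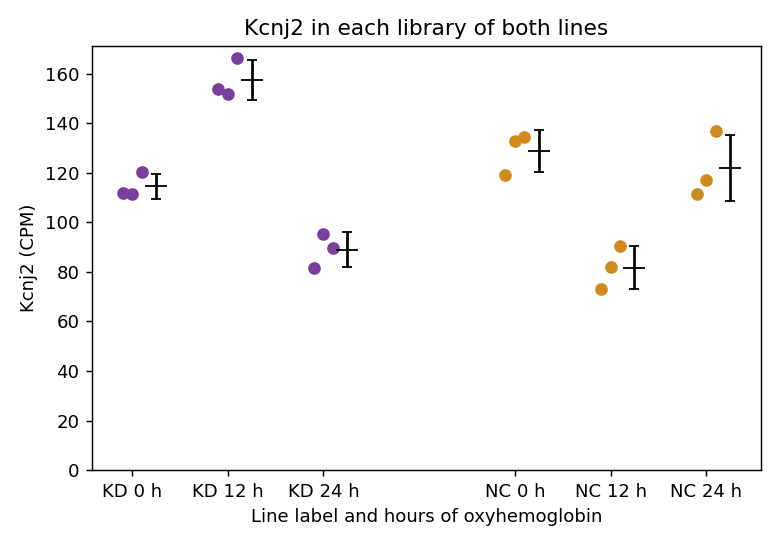
Kcnj2 level in CPM (vertical) in each library of the KD-labelled and NC lines at 0 h, 12 h and 24 h of oxyhemoglobin (horizontal), with points for libraries and a black bar for the mean ± SD of 3. From 12 h to 24 h the KD-labelled libraries move down, to 81.6 to 95.4 CPM, and the NC libraries up, to 111 to 137 CPM.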

How the data were processed

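RNA sequencing libraries of BV2 cells were grouped by their titles into 2 lines and 3 times, 3 libraries each. Per the labels' protocols, total RNA was made into libraries by tagmentation. The series deposited whole-number counts per gene, not normalized, and TPM of the same 55487 genes. The submitters' processing notes name GRCm38, featureCounts, HISAT2 2.2.0, DESeq2 and bcl2fastq as what the authors used. Whether counting used strand is not stated in the labels, so overlapping antisense genes cannot be told apart. Totals ran from 4361313 to 6008810 counts.

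Counts were tested with edgeR 4.0.16 (limma 3.58.1, R 4.3.3): a filterByExpr minimum count of 10, TMM factors, and robust quasi-likelihood tests in a fit of all 18 libraries by group. Genes tested held 99.65% of counts. Libraries of a group always differed by more than sampling noise (chi-square over its degrees of freedom 4.98 to 19.6). Positions are from GENCODE M21 and promoters from RefSeq (GRCm38.p6). Of the 9 genes with a printed stretch, 7 had bases just after the RefSeq start in a GENCODE transcript of the gene. The alternatives comprised upper-quartile and RLE factors, no filter, a filter of 5 CPM in 3 libraries, DESeq2 1.42.0, a replicate block, the compared groups alone, limma on the authors' deposited TPM as log2(TPM + 1) or log2(TPM + 0.1), and each library left out in turn; leaving out all libraries numbered 2 was chosen after seeing the data. Same-numbered libraries correlated by over 0.1 in every pair of treated groups checked, so the number was used as a block in an alternative fit. Control groups were not part of that check. Between the lines at 24 h, KD library 3 correlated by 0.148 with NC library 3 and by 0.142 with NC library 1. The main fit has no block. The labels do not say what the numbers stand for. The scripts were tested on simulated data. The members and the gene lists were chosen with earlier results of these data known. Genes named are the 10 largest changes each way (non-overlapping, at least 5 CPM), up to 4 members of each list by adjusted p, a fixed panel, up to 5 interaction genes each way, and others said to be picked after their values were seen.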

Additional observations from a re-analysis of the deposited data

Results flagged for a closer look

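Kcnj2, an inward rectifier potassium channel, changed differently between 12 h and 24 h in the 2 lines, with a log2 interaction of -1.40 (edgeR's quasi-likelihood test, adjusted p = 0.00742). It was lower at 24 h in 3 of 3 KD-labelled libraries and higher at 24 h in 3 of 3 NC libraries. No group held enough libraries to be tested for a single sample far from the others.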

How the results depend on the processing

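Between 12 h and 24 h in the KD-labelled line, 684 genes passed; with the replicate block 1971 did, without the libraries numbered 2 433 did (403 of them among the 684), and in fits that left out 1 library between 428 and 506 did. The other alternatives gave 517 to 845. The interaction passed for 2 genes in DESeq2, 112 with the replicate block, 0 in limma on log2(TPM + 1) and on log2(TPM + 0.1), 8 in limma on log2(TPM + 1) without a filter, 0 without the libraries numbered 2, and 0 to 1 when 1 library was left out. The fits that left libraries out rest on fewer samples, and the cause of the differences was not tested. The block turned no call of a named gene off. In the 3 limma fits, in the order just given with the unfiltered one last, Tnf was -0.018, -0.024 and -0.018 and Ripk1 -0.13, -0.15 and -0.13, where the counts gave positive values; neither passed in any fit. When 1 library was left out, the values that also changed sign, none of them past the threshold, ran from -0.078 to 0.37 for Tnf, -0.0096 to 0.17 for Ripk1, -0.84 to 0.16 for Atf4, -0.46 to 0.091 for Ccl2, -0.30 to 0.37 for Cxcl10 and -0.22 to 0.039 for Bax. Genes under about 5 CPM, such as Ccl17, Cxcl10, Mlkl and Zfp36, rest on few counts at these depths.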
